A study of Drosophila melanogaster with 15 samples.

Results

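In these flies, 123 probe sets of 121 genes had a higher hybridization Signal on all 5 arrays of males exposed to ethanol a 2nd time than on any of the 10 arrays of males with 1 exposure or none. They were chosen by these Signals from the 10478 probe sets, of 9738 genes, that carried 1 annotated gene symbol and averaged at least 50 in Signal. The whole array named 11981 genes in this way. Symbols starting with Obp, Cyp, Gst, Ugt, RpL and RpS were left out, which removed 7 probe sets from the 130 that met the rest of the rule (1.24% of the 10478). The mirror image, all 5 arrays of the 2nd exposure below all 10 others, held for 76 probe sets (0.725%). The 2nd exposure values of the members are given as a description without a test.

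All flies were Canton-S B males of *Drosophila melanogaster*, an isogenic strain derived from Canton-S, collected whole at 3 to 5 days of age. The 2nd exposure flies passed through the inebriometer, a column of ethanol vapor from which intoxicated flies fall, recovered for 2 h on food and passed through it again (labelled tolerance, 5 arrays). The 1st exposure flies were frozen directly after a single passage (acute response, 5 arrays), and control flies had no ethanol (5 arrays). Each array read a separate pool of flies on the Affymetrix *Drosophila* GeneChip 2.0. Within a replicate the pools of the 3 treatments were drawn from the same groups of flies, per the methods, but arrays with the same number did not deviate together. Exposed flies were those that eluted in a chosen window around the peak of elution, which came later in the 2nd passage. The number of exposures, the time since the 1st exposure, the elution window and the time of day therefore cannot be told apart between 2nd exposure flies and the other groups.

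Ethanol tolerance is the reduced sensitivity of an animal that has met ethanol before. In flies a single sedating dose is followed within hours by tolerance, and the interval leaves time for transcription, metabolism of the ethanol and recovery feeding. Transcripts in such a window are usually discussed as enzymes and transporters, stress proteins, regulators of chromatin and transcription, and proteins of the synapse and cytoskeleton, and the members are described below in that order. A whole fly was read, so a change in the number of cells of a type and a change in the RNA of each cell cannot be told apart.

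Some arrays stood apart before any result is read. On 2nd exposure array 5 the yolk protein genes *Yp1*, *Yp2* and *Yp3*, which females express in fat body and ovary, had Signals of 2521, 1669.5 and 1661, against at most 72.9, 94.8 and 147 on the other 14 arrays, and the vitelline membrane gene *Vm26Aa* had 485 against at most 34.5. The vitelline membrane genes *Vm32E* and *Vm34Ca* were also higher on that array than on any of the other 14. The chorion genes *Cp15*, *Cp16*, *Cp18*, *Cp19*, *Cp36* and *Cp38* were not, and *Cp18* had its lowest Signal there. The summed Signal of these 12 yolk and ovary genes therefore does not stand for each of them. It ranged over 246 to 7456 after the 2nd exposure, 225 to 338 after the 1st and 292 to 362 in control flies. Of the 12, 5 had a mean under 20. The flight muscle genes *Act88F* and *fln* varied within every treatment, with *Act88F* at 4646, 5815, 7577, 20241 and 15298 after the 2nd exposure, 3163 to 10110 after the 1st and 5262 to 10966 in control flies. None of 10 flight muscle, 16 testis and 12 accessory gland genes was called between 2nd exposure and control flies (limma, adjusted p of at least 0.05), while 8 of 9 tested antennal genes were lower after each exposure than in control flies, with a summed Signal of 7247 to 8853 after the 2nd exposure, 6174 to 9210 after the 1st and 10979 to 12523 in control flies. Leaving out 2nd exposure array 5, the rule gave 145 probe sets, 122 of them members. Leaving out arrays 4 and 5 together gave 236, with 118 of the 123 among them. A rule over fewer arrays is easier to meet, so the larger counts do not speak to its stability. The parts of yolk, muscle and antennal RNA in the members' values were not tested.

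**Figure D1:**
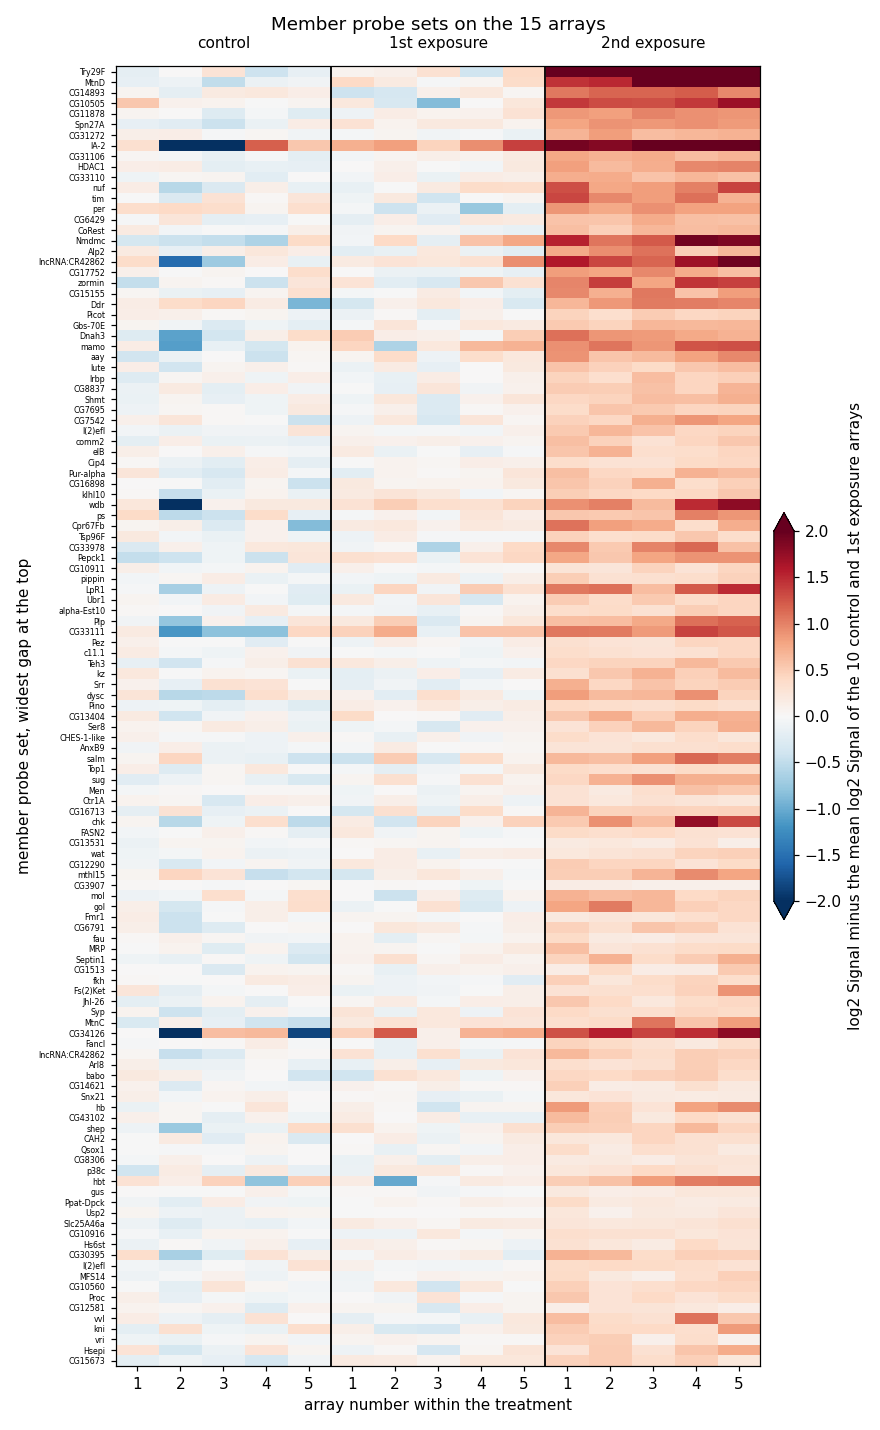
Each row is a member probe set, ordered from the widest gap at the top, and each column an array. Colour gives the log2 Signal minus the mean of the 10 control and 1st exposure arrays, and all 5 columns of the 2nd exposure lie above that mean in all 123 rows because the rule required it. The scale ends at 2 in each direction, which 2nd exposure arrays of *Try29F*, *MtnD* and *IA-2* pass upward and control arrays of *IA-2*, *wdb* and *CG34126* pass downward.

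Most members differed by a modest amount. The mean Signal after the 2nd exposure was 1.09 to 4.93 times that of the 10 other arrays, with a median of 1.40. It was more than 2 times as high for 13 probe sets, 1.5 to 2 times for 34, 1.25 to 1.5 times for 53 and under 1.25 times for 23. The median ratio was 1.83 for 21 dim members, with a mean under 100 on the other arrays, 1.38 for 68 members between 100 and 1000 and 1.31 for 34 members above 1000. The distance between the lowest 2nd exposure array and the highest other array was smaller still, with a median ratio of 1.07. That ratio exceeded 1.5 for only 4 probe sets, those of *Try29F*, *MtnD*, *CG14893* and *CG10505*, and 1.1 for 42.

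The members nearest the threshold were separated by a very small part of their Signal. The lowest 2nd exposure and highest other Signals were 279.9 and 279.5 for *CG15673*, 124.7 and 124.5 for *Hsepi*, 798.7 and 797.3 for *vri*, 141.4 and 140.9 for *kni*, and 175 and 174 for *vvl*. On the far side stood *eIF2D* with 312.2 and 312.7, *alpha-Man-Ia* with 333.4 and 334.2, *CG10874* with 573.4 and 575, *tyf* with 161.1 and 161.7 and *CG9784* with 274.8 and 275.9. Array scale mattered at this distance, since the array medians were 138.8 to 142.1 after the 2nd exposure, 130.1 to 132.8 after the 1st and 136 to 139.3 in control flies. With equalised array medians 68 of the 123 members stayed separated, and with quantile normalization 96. The 20 members with the widest gaps stayed separated under both, and all 123 kept a higher mean after the 2nd exposure. Both were read on members chosen for that separation, so they are a description and give it no support.

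**Figure D2:**
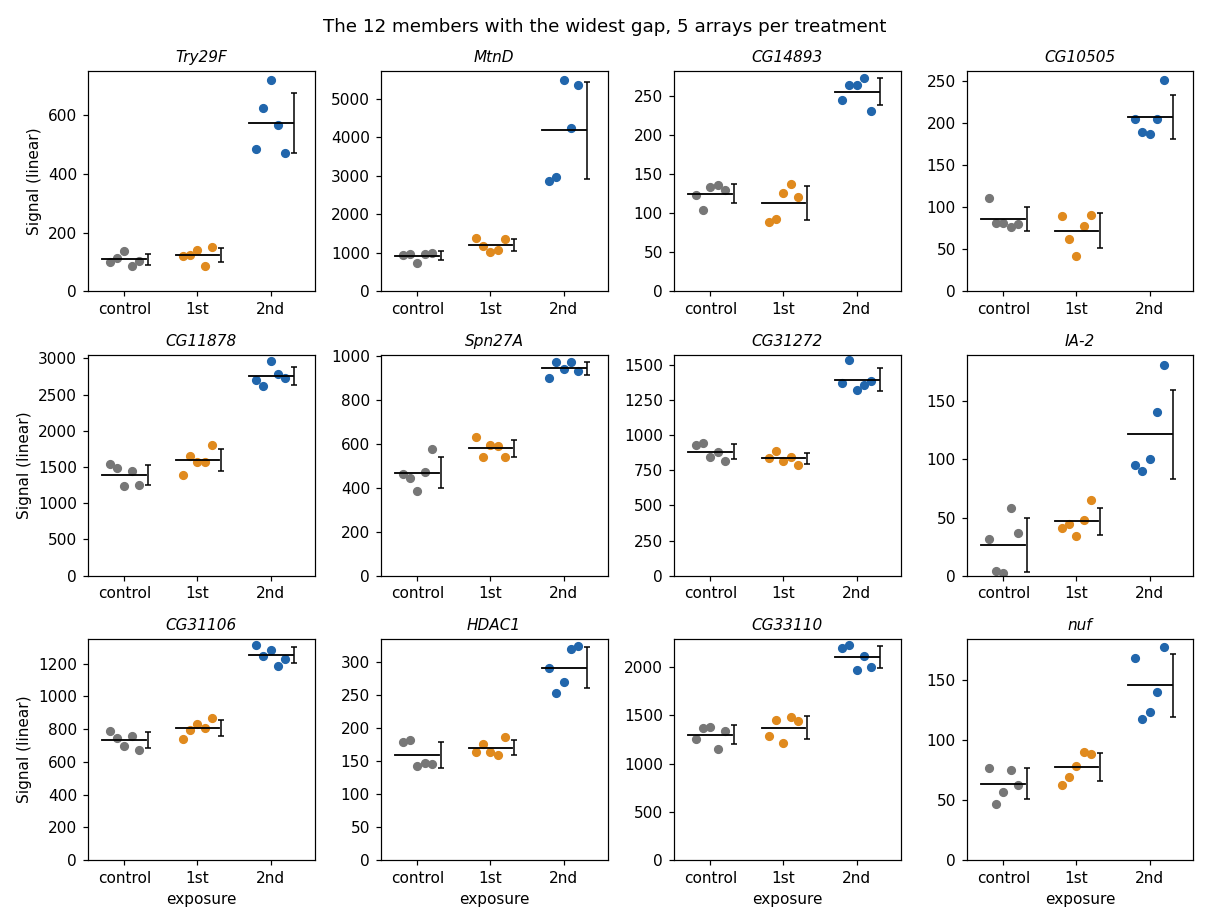
Signal on a linear axis for the 12 members with the widest gap, with 1 point per array, a line at the mean of 5 arrays and a bar of 1 SD. In each panel the 5 points after the 2nd exposure lie above the 10 others, and the points of the 1st exposure and control flies overlap in all panels except *MtnD*.

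The widest gap belonged to a protease gene. *Try29F*, which encodes a trypsin-like serine protease, had Signals of 485, 623, 719.5, 567 and 472 after the 2nd exposure, against 86.2 to 151 (median 117) on the other 10 arrays. Its mean of 573 ± 103 (SD, n = 5) was 4.93 times that of the others, and its lowest array lay 1.64 above the highest of them on the log2 scale. The protease members *Ser8* and *CG7542* had smaller ratios of 1.43 and 1.57, and gaps of only 0.096 and 0.161 on the log2 scale. *CG7542* had 3569, 3426, 4221, 4732 and 4467 after the 2nd exposure, against 1911 to 3065 (median 2636), with arrays 4 and 5 the highest. *Spn27A*, a serpin that restrains protease cascades of immunity and melanization, stood at 901, 973, 944, 975 and 935 after the 2nd exposure, against 384 to 634 (median 542). Its 5 arrays spanned a narrow range, with an SD of 30.5.

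The other trypsins and serpins did not move together. Of 31 other tested genes of that list, 1 was higher and 3 were lower in 2nd exposure than in control flies (limma, Benjamini-Hochberg), against 2.42% and 1.21% of the 13809 probe sets tested, and their median log2 difference was -0.06. The trypsin genes *zetaTry*, *etaTry* and *lambdaTry* fell. *zetaTry* averaged 791 ± 15.2 after the 2nd exposure and 1197 ± 68.1 in control flies (log2 difference -0.60, SE 0.05, adjusted p = 5.93e-05). *etaTry* averaged 439 ± 37.6 after the 2nd exposure and 562 ± 32.5 in control flies (log2 difference -0.36, SE 0.06, adjusted p = 0.00608), and *lambdaTry* 2714 ± 222 after the 2nd exposure and 3707 ± 391 in control flies (log2 difference -0.45, SE 0.09, adjusted p = 0.0132), the last lost with the replicate number as a block (adjusted p = 0.0527). The protease gene *CG9733* rose at a low level, with 73.0 ± 13.9 after the 2nd exposure and 21.8 ± 14.8 in control flies (log2 difference 2.09, SE 0.46, adjusted p = 0.0211). Its call was lost without 2nd exposure array 1 or 5, where the adjusted p reached 0.0522. Among 19 midgut markers 2 were lower and none higher in the same comparison, and the summed Signal of the list was 128517 to 172877 after the 2nd exposure and 152488 to 175954 in control flies, and its part in these values was not tested.

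Next came genes of metal handling. The metallothionein gene *MtnD*, whose cysteine-rich product binds metal ions, had 2859, 2975, 5491, 4229 and 5350.3 after the 2nd exposure, against 745 to 1381 (median 1017) on the other arrays, a mean ratio of 3.92. Within the 2nd exposure arrays 3, 4 and 5 were clearly above arrays 1 and 2. *MtnC*, a paralog, reached 3866, 3996, 6475, 4541 and 5493 after the 2nd exposure, against 2232 to 3765 (median 3418), so that its gap was only 0.04 on the log2 scale. Metallothionein transcripts resemble each other, and signal shared between their probe sets was not tested. *Ctr1A*, a copper importer, differed least, with 376, 357, 383, 370.1 and 360.0 against 248 to 338 (median 319.7). Of the other 5 genes on the metallothionein list, 4 had a positive log2 difference between 2nd exposure and control flies and none was called.

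Several members encode membrane transporters. *CG10505*, an ABC transporter gene, had 204, 189, 187, 205 and 252 after the 2nd exposure, against 42.1 to 111 (median 80.1). *MRP*, whose product exports conjugated xenobiotics, had 3112, 2419, 2538, 2653 and 2663 against 1698 to 2348 (median 2139.8). The predicted transporter genes *CG31272*, *CG31106* and *CG17752*, listed here with the organic ion transporters of the SLC22 type, formed a group with similar ratios. *CG31272* had 1376, 1536, 1324, 1358 and 1386 after the 2nd exposure, against 787 to 943 (median 847). *CG31106* had 1317, 1249, 1286, 1184 and 1232 against 673 to 866 (median 773), and *CG17752* had 711, 693, 780.0, 666 and 604 against 356 to 509 (median 398). Their ratios were 1.62, 1.63 and 1.72, and their gaps to the highest other array were 0.49, 0.45 and 0.25 on the log2 scale.

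The remaining transporter members comprise the sugar transporter-like genes *pippin* (ratio 1.30) and *CG8837* (1.45), the phosphate cotransporter *Picot* (1.34), the major facilitator gene *MFS14* (1.23), the monocarboxylate transporter *chk* (2.09) and the mitochondrial carrier *Slc25A46a* (1.18). None of the 20 other SLC22 genes was called between 2nd exposure and control flies, and 6 of them had a positive difference. Of 23 other sugar transporter genes 1 was called. This gene, *CG15221*, averaged 91.2 ± 13.5 after the 2nd exposure and 13.8 ± 9.29 in control flies (log2 difference 2.99, SE 0.49, adjusted p = 0.00405), and its control Signals lay below 20 on average. None of 17 other genes of the detoxification regulator list was called.

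Kinase-like genes related to ecdysteroid 22-kinase, a large insect family with proposed roles in detoxification, gave 4 members. *CG11878* had 2702, 2614, 2959.9, 2788 and 2724 after the 2nd exposure, against 1239 to 1803 (median 1512), a ratio of 1.85. *CG16898*, *JhI-26* and *CG10560* had ratios of 1.42, 1.31 and 1.30. In *CG10560* control array 3 (2596) came close to the lowest 2nd exposure array (2613). Among 38 other tested genes of the family, 1 was higher and 2 were lower in 2nd exposure than in control flies. *CG6908* averaged 1961 ± 140.2 after the 2nd exposure and 1353 ± 226 in control flies (log2 difference 0.55, SE 0.12, adjusted p = 0.0213), a call lost without control array 3 or 2nd exposure array 3, 4 or 5 (adjusted p up to 0.0594). *CG9259* averaged 2300.0 ± 198 after the 2nd exposure and 2835 ± 143 in control flies (log2 difference -0.30, SE 0.06, adjusted p = 0.0122), a call lost without 2nd exposure arrays 4 and 5 together (adjusted p = 0.0949), and *CG9497* 303 ± 47.6 after the 2nd exposure and 608 ± 154 in control flies (log2 difference -0.98, SE 0.17, adjusted p = 0.00641).

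Enzymes of folate, serine and purine metabolism gave 3 members. *Nmdmc*, a mitochondrial enzyme of the folate cycle, had 1296, 939, 1043, 1702 and 1641 after the 2nd exposure, against 293 to 762 (median 413), and a ratio of 2.80. Arrays 4 and 5 were the highest. The serine hydroxymethyltransferase *Shmt* had 2226, 2281, 2557, 2538 and 2721 against 1384 to 1978 (median 1647). *aay*, which encodes a phosphoserine phosphatase, had 4423, 3493, 3709, 4176 and 4615 against 1764 to 3076 (median 2419.8). Control flies, 1st exposure flies and 2nd exposure flies averaged 2125, 2714 and 4084 for *aay*, and 376, 569 and 1324 for *Nmdmc*. Among 17 other genes of the list, 3 purine or nucleotide enzymes were higher and none lower in 2nd exposure than in control flies. *Prat2* averaged 3188 ± 571 after the 2nd exposure and 1756 ± 132 in control flies (log2 difference 0.85, SE 0.15, adjusted p = 0.00596), *Paics* 3895 ± 548 after the 2nd exposure and 2479 ± 203 in control flies (log2 difference 0.64, SE 0.14, adjusted p = 0.0235) and *Prps* 3878 ± 227 after the 2nd exposure and 2965 ± 307 in control flies (log2 difference 0.39, SE 0.08, adjusted p = 0.0134). All 3 calls were lost when 2nd exposure arrays 4 and 5 were left out together, and that of *Paics* also without control array 1, 3 or 4 or 2nd exposure array 4 or 5 alone (adjusted p up to 0.0632). Serine racemase *Srr* also met the rule, with 1086, 882, 985, 899 and 943 after the 2nd exposure, against 575 to 819.5 (median 651).

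Members at the junction of pyruvate, glycogen and lipid were bright. *Pepck1*, which encodes the first committed enzyme of gluconeogenesis, had 14693, 12494, 14872, 16013 and 15929 after the 2nd exposure, against 6140.2 to 11457 (median 9137). The malic enzyme *Men*, a source of NADPH, had 7704, 7178, 7962, 9495 and 9074 against 5818 to 6746 (median 6381), with arrays 4 and 5 above the others. *Gbs-70E*, a glycogen-targeting subunit of protein phosphatase 1, had 5438, 5113, 5973, 5912 and 5950.4 against 3116 to 4449.9 (median 3693). No other gene of the pyruvate and NADPH list was called, of 8 tested.

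Lipid genes were represented by synthesis and uptake. *CG33110*, an elongase-like gene, had 2201, 2235, 1970.4, 2122 and 2009 after the 2nd exposure, against 1147 to 1481 (median 1356). The fatty acid synthase *FASN2* had 3591, 3487, 3633, 3388 and 3353 against 2442 to 3201 (median 2733), and the fatty acyl-CoA reductase *wat* had a ratio of 1.26. The sugar-responsive zinc finger gene *sug*, a regulator of lipogenesis, had 1347, 1645, 1909.8, 1653 and 1652 against 820.3 to 1265 (median 1016). *LpR1*, a lipophorin receptor, was read by a dim probe set with a ratio of 2.13.

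Of 25 other genes on the fatty acid list, which included the regulator *cbt*, 2 were higher and none was lower in 2nd exposure than in control flies. *FASN3* averaged 1852 ± 329 after the 2nd exposure and 1358 ± 151 in control flies (log2 difference 0.44, SE 0.11, adjusted p = 0.0402), and its call held without control array 2 or 2nd exposure array 4 or 5 but was lost without any of the other 12 arrays (adjusted p up to 0.0944). *cbt*, the gene of a zinc finger factor induced by sugar and by neuronal activity, averaged 5753 ± 337 after the 2nd exposure and 3968 ± 236 in control flies (log2 difference 0.54, SE 0.06, adjusted p = 1.97e-04) and was also higher after the 1st exposure (adjusted p = 0.00369). None of 15 other small heat shock and chaperone genes and of 20 genes of the unfolded protein and integrated stress response was called. The small heat shock gene *l(2)efl* was a member with both of its brighter probe sets, at 4458, 4899, 4579, 4138 and 4192 after the 2nd exposure, against 2849 to 3712 (median 3000.2) on one, and at 12382, 12751, 12632, 12252 and 11852 against 8936 to 11763 (median 9348) on the other. On each, control array 5 was the highest of the other 10 arrays.

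On their member probe sets the clock genes stood differently after the 1st exposure, but no difference between the genes was tested. *per*, whose product represses its own transcription over the day, had 210.3, 193, 215, 198 and 199 after the 2nd exposure, against 111, 85.7, 105, 67.4 and 99.6 after the 1st exposure and 145, 150.2, 145, 118 and 144 in control flies. The 3 groups did not overlap, with the 1st exposure lowest and the 2nd highest. *tim*, the partner of *per*, had 373, 288, 263, 317 and 238 after the 2nd exposure, against 112 to 181 (median 148) on the other arrays. Its brighter probe set, not a member, had 972 to 1072 after the 1st exposure and 1178 to 1436 in control flies. These did not overlap, with the 1st exposure lower as for *per*, but the difference was not called (limma, log2 difference -0.37, adjusted p = 0.212). *vri*, a repressor in the second loop of the clock, passed the rule by a small margin, with 1028, 1054, 802, 959.7 and 799 against 680.3 to 797 (median 762). Of 13 other clock genes 1 was called between 2nd exposure and control flies. *Pdp1*, the activator opposed to *vri*, averaged 1852 ± 199.8 after the 2nd exposure and 1485 ± 83.2 in control flies (log2 difference 0.31, SE 0.08, adjusted p = 0.0336), a call lost without any of control arrays 1 to 4 or 2nd exposure arrays 1 to 4 (adjusted p up to 0.0906). Per the methods, assays ran from morning to early afternoon under a light and dark cycle, and within a replicate control flies were frozen first and 2nd exposure flies last. The hour at which each pool was frozen was not given in the sources used here.

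Corepressor genes were among the 20 widest gaps. *HDAC1*, a class I histone deacetylase, had 291, 253, 270.1, 319 and 325 after the 2nd exposure, against 143 to 187 (median 164), a ratio of 1.77. *CoRest*, a corepressor that joins histone deacetylase complexes, had 599.5, 552, 627, 607 and 618 against 357 to 447 (median 391). Both dimmer probe sets of *CoRest*, with means under 60, were not called between 2nd exposure and control flies. Of 16 other deacetylase and corepressor genes none was higher and 1 was lower. *Sirt1*, a sirtuin deacetylase, averaged 604 ± 70.8 after the 2nd exposure and 811 ± 90.2 in control flies (log2 difference -0.42, SE 0.09, adjusted p = 0.0192), a call lost without 2nd exposure arrays 4 and 5 together.

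Transcription factors made up a further group of members. It held *salm*, *hb*, *kni*, *elB*, *vvl*, *fkh*, *mamo*, *CHES-1-like* and *lute*, most of them known from embryonic patterning or cell fate. Their ratios on the member probe sets ranged from 1.22 for *CHES-1-like* to 2.00 for *mamo*. A brighter probe set of *mamo* and of *vvl* was not called between 2nd exposure and control flies (log2 differences 0.04 and 0.23). *salm*, which specifies fibrillar flight muscle, had 287, 279, 325, 406 and 374 after the 2nd exposure, against 136 to 261 (median 179.7), and arrays 4 and 5 were its highest, as they were for *Act88F*. RNA-binding proteins were present with *Syp*, *ps*, *shep* and *Fmr1*, at ratios of 1.28, 1.61, 1.38 and 1.21 on the member probe sets. Brighter probe sets of *Syp*, *ps* and *shep* were not called. None of these transcription factor and RNA-binding genes stood on a list, and the 8 activity-regulated transcription factor genes held no member. In that list *cbt* and *hry* were higher in 2nd exposure than in control flies, *hry* at 4342 ± 273 after the 2nd exposure and 3135 ± 213 in control flies (log2 difference 0.47, SE 0.07, adjusted p = 0.00146).

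Genes of secretion, traffic and the cytoskeleton included 2 of the 12 widest gaps. *IA-2*, a phosphatase-like protein of dense core vesicles, had 95.6, 90.3, 101, 141 and 181 after the 2nd exposure, against 2.00 to 64.8 (median 39.0). The low end came from control arrays 2 and 3 with 4.0 and 2.0, so that a ratio on this probe set rests on Signals near the bottom of the scale. *nuf*, a partner of the recycling endosome GTPase Rab11, had 168, 118, 123, 139 and 177 against 46.9 to 89.5 (median 71.8). *Septin1* and the membrane-bending protein gene *Cip4* had ratios of 1.45 and 1.27, and the lysosomal GTPase *Arl8* 1.28. Among 24 other septin and actin genes 3 were higher and none lower in 2nd exposure than in control flies. The capping protein *cpb* averaged 550.0 ± 41.0 after the 2nd exposure and 421 ± 38.6 in control flies (log2 difference 0.39, SE 0.07, adjusted p = 0.00755), *Arpc3B* of the Arp2/3 complex 291 ± 37.3 after the 2nd exposure and 175 ± 26.7 in control flies (log2 difference 0.73, SE 0.12, adjusted p = 0.00389) and the filamin *cher* 1139 ± 71.9 after the 2nd exposure and 909 ± 83.8 in control flies (log2 difference 0.33, SE 0.08, adjusted p = 0.0326). The call for *cher* was lost without any of control arrays 1 to 4 or 2nd exposure arrays 1 to 4 (adjusted p up to 0.0786). *Arpc3B* was also higher after the 1st exposure (adjusted p = 0.0376).

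Several leading members lie outside these roles or have no role given here. *CG14893* had 245, 264, 264, 273 and 230.2 after the 2nd exposure, against 88.0 to 137 (median 125), and *CG6429* had 489, 483, 551, 496 and 495 against 279.7 to 389.5 (median 326). *Alp2*, an alkaline phosphatase, had 1449, 1638, 1819, 1214 and 1367 against 738 to 1004 (median 858). The long noncoding RNA *lncRNA:CR42862* was a member with a dim and a bright probe set. The dim one had 855, 709, 634, 915 and 1085 after the 2nd exposure, against 96.4 to 534 (median 323), and the bright one 5553, 4949.6, 4537, 4961 and 4869 against 2585 to 4425 (median 3609). The remaining probe set of this RNA, brighter still, averaged 8306 ± 732 after the 2nd exposure and 9143 ± 818 in control flies (SD, n = 5 each) and was not called (adjusted p = 0.544). In all, 36 member genes stood on at least 1 of the 15 pathway lists and 85 on none.

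Across all lists, 279 genes that were not members were tested between 2nd exposure and control flies, and 13 were higher and 6 lower. With the replicate number as a block the calls of *CG6908*, *FASN3*, *Pdp1*, *cher*, *lambdaTry* and *CG9733* were lost (adjusted p 0.0527 to 0.0809). With only 2nd exposure and control flies in the fit, those of *CG9259*, *FASN3*, *Pdp1*, *cher*, *Sirt1* and *CG9733* were lost (adjusted p 0.0578 to 0.119). Without 2nd exposure arrays 4 and 5, those of *CG6908*, *cher* and *CG9733* were lost as well as those named with this loss above (adjusted p 0.0508 to 0.166). The lists were drawn up with genes from these samples in view, and therefore such counts give no independent evidence of direction. Over all 13809 probe sets 334 were higher and 167 lower, and with equalised array medians 269 and 254, which moved the share of higher calls to 51.4%, against 66.7% on the deposited scale.

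The members were not all silent after the 1st exposure. The rule treats 1st exposure and control arrays alike, so it did not fix a direction between them, although it capped both below the 2nd exposure. Of the 123 probe sets, 81 (65.9%) had a higher mean log2 Signal in 1st exposure than in control flies, against 44.1% of the 10478 eligible probe sets and 43.2% of those tested. The share was 72.4% against 51.5% with quantile normalization and 82.9% against 64.3% with equalised array medians. The median log2 difference was 0.06 for the members and -0.02 for the eligible probe sets.

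After adjustment, 3 members were higher and 1 was lower in 1st exposure than in control flies (limma with Benjamini-Hochberg adjustment), against 0.174% and 0.188% of all tested. The rule capped the Signals of both groups and favoured even 2nd exposure arrays, whose spread enters the fit, so these counts and shares are a description. *Pino*, known for its expression in the antenna, had 4034, 3866, 4239.9, 3943 and 4102 after the 1st exposure, against 3413, 3432, 3192, 3357 and 3099.5 in control flies, and 4824, 4644, 4541, 4738 and 4537 after the 2nd. The 3 groups did not overlap (log2 difference of 1st exposure minus control 0.29, SE 0.05, adjusted p = 0.0196). The mitochondrial carrier *Slc25A46a* had 589, 559, 531, 589.8 and 582 after the 1st exposure, against 481, 434, 479, 469 and 499.9 in control flies (log2 difference 0.27, SE 0.05, adjusted p = 0.0449). *CG15673*, the member with the smallest gap, had 270.0, 268, 250.0, 278 and 279.5 against 208, 224, 214, 189 and 227 (0.34, SE 0.07, adjusted p = 0.0493). *per* was lower after the 1st exposure than in control flies, by a log2 difference of -0.60 (SE 0.12, adjusted p = 0.0493).

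These calls were narrow. That of *per* was lost without any 1 of the 15 arrays, that of *Slc25A46a* without any except control array 5, and that of *CG15673* without any except 2nd exposure array 5, with adjusted p up to 0.125, 0.12 and 0.125. The call for *Pino* was lost without 1st exposure array 1, 3 or 4 or control array 3 (adjusted p up to 0.0609). None of the 4 was called with only these 2 treatments in the fit, and *per* alone kept its call with the replicate number as a block (adjusted p = 0.0423).

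By overlap alone, 8 members had all 5 arrays of the 1st exposure above all 5 control arrays (1.19% of all tested) and 1 had all 5 below (1.6%). The 8 were *MtnD*, *MtnC*, *CG16898*, *wdb*, *Septin1* and the 3 called higher, and the 1 below was *per*. *MtnD* had 1381, 1184, 1029, 1079 and 1348 after the 1st exposure, against 942, 977, 745, 972 and 1004 in control flies, without overlap but not past the adjusted threshold (log2 difference 0.37, SE 0.18, adjusted p = 0.49). *MtnC* had 3538, 3765, 3546, 3716 and 3653 after the 1st exposure, against 2489.8, 3298, 2759, 2332 and 2232 in control flies, again without overlap (log2 difference 0.49, SE 0.14, adjusted p = 0.198). The protein phosphatase 2A subunit gene *wdb* had 67.4, 77.4, 69.8, 68.0 and 75.4 against 64.9, 9.30, 58.9, 62.9 and 63.3, where control array 2 stood far below the rest.

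Seen as steps on the deposited scale, the 1st exposure carried a median of 11.5% of the log2 difference between control and 2nd exposure flies. This share depends on array scale. The members' median log2 difference of 1st exposure minus control was 0.06 as deposited, 0.08 with quantile normalization and 0.12 with equalised array medians. For 7 members the share was more than 50%. Among them were the dim *IA-2*, *CG34126* and *CG33111*, with SEs of 0.76, 0.54 and 0.27 for 1st exposure minus control. For 42 members the 1st exposure mean lay below that of control flies. *Try29F* averaged 124 after the 1st exposure and 108 in control flies, a share of 7.91%. For *Slc25A46a* the share was 70.4% and for *Pino* 58.6%. Among the 10 other arrays the highest Signal came from a 1st exposure array in 73 members and from a control array in 50, and 1st exposure array 5 alone was highest in 23. The label of genes raised only after a 2nd exposure thus covers members of different kinds. In some, such as *CG31272*, the Signals of 1st exposure and control flies overlapped. In others, such as *Pino*, the 1st exposure stood between control and 2nd exposure flies.

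**Figure D3:**
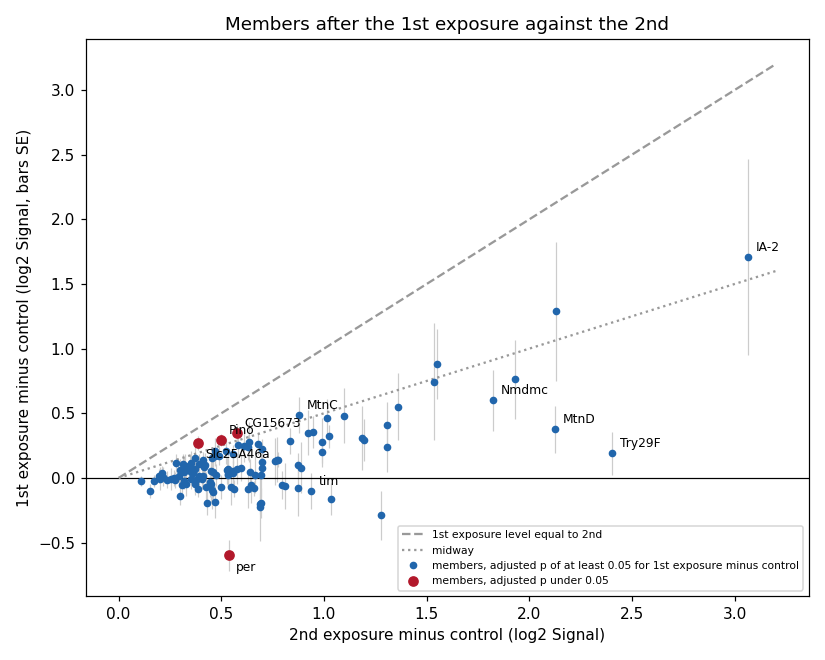
For each member, the log2 difference of 1st exposure minus control (bars, SE) against that of 2nd exposure minus control. Points on the dashed line would have the same level after both exposures. 81 of 123 points lie above 0 on the vertical axis, and the 4 red points were called, *per* below 0 and *Pino*, *Slc25A46a* and *CG15673* above.

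Other probe sets of the same genes gave a reading that the rule did not use. Among 121 member genes, 86 were read by 1 probe set only or by member probe sets alone, and 35 had 67 further probe sets, of which 59 were bright enough to test. Of the 59, 3 were higher and none was lower in 2nd exposure than in control flies, against 2.42% and 1.21% of all probe sets tested. Their median log2 difference was 0.10, against -1.85e-04 over all probe sets tested, and 43 of 59 were above 0. Several of the 59 read the same gene on the same arrays, so this count is a description. The members' median on the same contrast was 0.53, which the rule had favoured. Only 1 of the 67, for *fau*, met the separation of the rule.

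The 3 that rose belonged to *AnxB9*, *fau* and *l(2)efl*. The annexin gene *AnxB9* averaged 4237 ± 359 after the 2nd exposure and 3294 ± 157 in control flies on one further probe set (log2 difference 0.36, adjusted p = 0.00973), while the other, at 2566 ± 179 after the 2nd exposure and 2224 ± 164 in control flies, was not called (0.21, adjusted p = 0.145). For *l(2)efl* the means were 148 ± 35.0 and 52.9 ± 23.0 in 2nd exposure flies and controls (log2 difference 1.65, adjusted p = 0.0189). For *fau* they were 46.3 ± 11.4 and 25.0 ± 4.46 on a dim probe set (log2 difference 0.87, adjusted p = 0.00948), while its 3 brighter ones were not called.

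In several genes a brighter probe set did not follow the member. For *tim* the brighter probe set averaged 1501 ± 255 after the 2nd exposure, 1029 after the 1st and 1330 ± 103 in control flies (2nd minus control 0.16 on the log2 scale, adjusted p = 0.503), where the member probe set averaged 296 after the 2nd exposure and 154 in control flies. *nuf* was at 2354 ± 141 after the 2nd exposure and 2306 ± 142 in control flies on its bright probe set, and *LpR1* at 1985 ± 208 and 1903 ± 67.4. *IA-2* averaged 2812 ± 582 after the 2nd exposure and 3462 ± 273 in control flies on its bright probe set, a negative difference without passing the test (adjusted p = 0.218). For *chk*, *Syp*, *zormin*, *Septin1* and *Fs(2)Ket*, too, a further probe set brighter than the member was not called. The same held for *mamo*, *vvl*, *ps*, *shep*, *wdb*, *Plp*, *dysc*, *Dnah3*, *CG33111*, *CG34126* and *CG6791*. Probe sets of a gene can read different transcript ends or isoforms, and which transcripts these read was not analysed here.

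**Figure D4:**
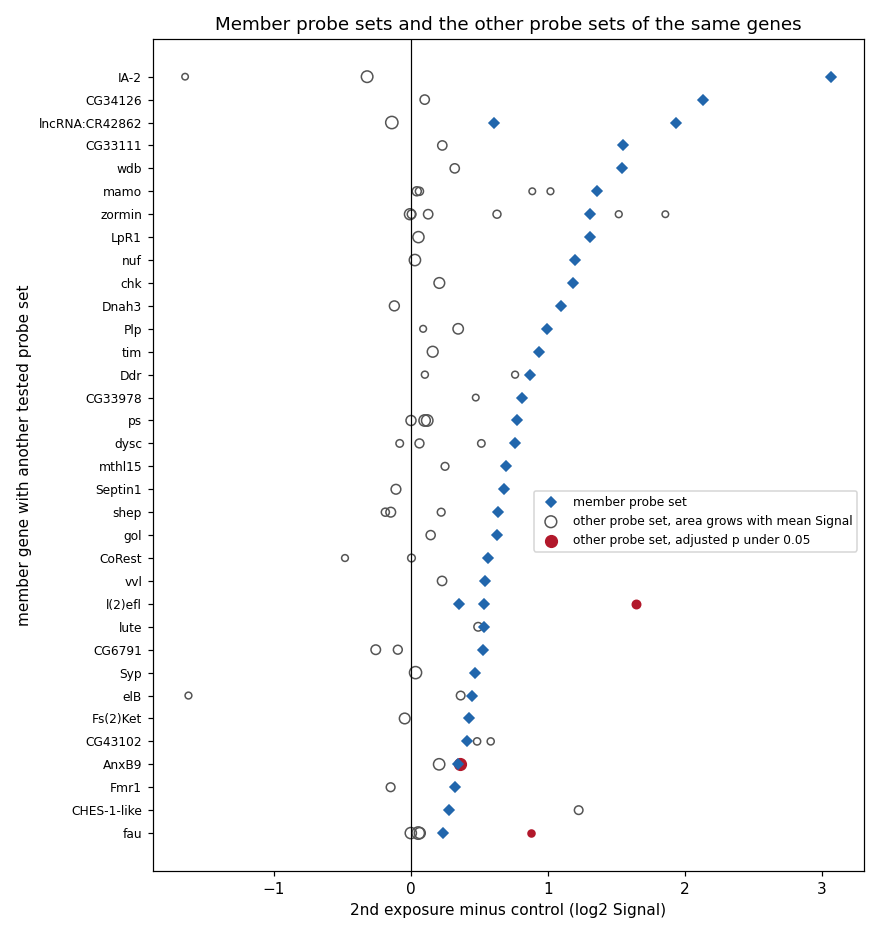
Log2 difference of 2nd exposure minus control flies for the member genes with another tested probe set. Diamonds are the member probe sets, and circles, whose area grows with the mean Signal, are the 59 others, of which 3 (filled) were called and most lie nearer 0 than the diamond of their gene.

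Members differed in how even they were within the 2nd exposure. The median coefficient of variation over the 5 arrays was 7.76% for the members and 11.1% for the eligible probe sets, a difference the rule favours. Arrays 4 and 5 were both above arrays 1 to 3 in 32 members (26%, against 17.0% of eligible probe sets) and both below them in 15 (12.2%, against 25.1%). The ratio of the means of arrays 4 and 5 over arrays 1 to 3 was highest for *chk* (1.82), *wdb* (1.73), *IA-2* (1.68) and *Nmdmc* (1.53), and lowest for *gol* (0.759) and *Alp2* (0.789). For *chk*, arrays 4 and 5 had 139 and 103 and the others 59.1, 77.2 and 63.2. *Fs(2)Ket*, an importin gene with a known role in the female germline, had 514 on array 5, which carried the yolk signal, and 335 to 378 on the other 4 arrays of the 2nd exposure. On the brighter probe set of this gene array 5 did not stand out, with 1084 in a range of 925 to 1135 after the 2nd exposure.

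By position, 36 members lay on arm 3R, which was 29.3% of them against 24.8% of the eligible probe sets. The shares were 21.1% against 20.4% on 2R (26 members), 17.9% against 18.6% on 2L (22) and 16.3% against 19.2% on 3L (20). They were 12.2% against 15.8% on X (15) and 1.63% against 0.668% on chromosome 4 (2). The member probe sets of *klhl10* and *Ser8* had no arm assigned. In the RefSeq order of genes, 5 pairs of member genes had at most 10 genes between them. The closest pair, *CG14621* and *Usp2*, had 3 genes between.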

How the data were processed

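Whole-male RNA from 15 pools was read on Affymetrix arrays. The authors computed the deposited Signal, a linear intensity per probe set, from perfect-match and mismatch probes with MAS5 and scaled each array, so Signals are relative to the array. Detection calls were not used here. Without 183 control probe sets the table held 18769. A single symbol was annotated for 13646, several for 402 and none for 4721. All 123 member probe sets matched RefSeq names (Release 6 plus ISO1 MT). No depth applies to arrays, and 5 per treatment limit the precision. P-values measure the spread between pools. Tests used limma 3.58.1 (R 4.3.3) on log2(Signal) of the 13809 probe sets averaging at least 20 (1 mean per treatment, empirical Bayes, Benjamini-Hochberg adjustment, threshold 0.05), checked on simulated data. Members were found by lowest against highest Signal. List genes were read by their brightest probe set. The members, lists and tests were chosen with earlier results of these data known. Genes are named if they have the 20 widest gaps, lie nearest the threshold (5 each side), stand on a list, were called after the 1st exposure or have a second probe set. Other list genes are named if called, and further members were chosen after their values were seen. Tables and plots used matplotlib 3.10.9, numpy 2.4.6, pandas 2.3.3 and Python 3.11.15. Alternatives were 2 scalings, log2(Signal + 50), linear Signal, no filter, a mean of at least 70, replicate block, eBayes trend, arrayWeights, 2 treatments only, other member filters (20, 100, no symbol left out), the mean of the gene's probe sets and each array left out. Averaging the nearest arrays, and leaving out 2nd exposure arrays 4 and 5 in the fits, were added after seeing the data.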

Additional observations from a re-analysis of the deposited data

Results flagged for a closer look

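In 135 groups of 5 arrays, those of 42 member probe sets named above and of 3 yolk genes, 16 had a sample whose distance to the nearest other exceeded Dixon's criterion of 0.71 of the range. Chance flags about 1 in 20 groups.

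Among 2nd exposure arrays, *Yp1* had 2521 on 2nd exposure array 5 and 5.70 to 72.9 on the other 4. *Yp2* had 1669.5 on 2nd exposure array 5 and 2.30 to 94.8 on the other 4. *Yp3* had 1661 on 2nd exposure array 5 and 72.3 to 147 on the other 4.

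Members with 1 high array follow. *CG10505* had 252 on 2nd exposure array 5 and 187 to 205 on the other 4. *CG10505* had 111 on control array 1 and 76.1 to 81.1 on the other 4. *CG6429* had 551 on 2nd exposure array 3 and 483 to 496 on the other 4. *Nmdmc* had 584 on control array 5 and 293 to 349.6 on the other 4. *Alp2* had 998 on 1st exposure array 3 and 738 to 790.4 on the other 4. The noncoding RNA *lncRNA:CR42862* had 534 on 1st exposure array 5 and 318 to 349 on the other 4. *CG17752* had 509 on control array 5 and 395 to 427 on the other 4. *l(2)efl* had 3712 on control array 5 and 2849 to 2973 on the other 4. *l(2)efl* had 11763 on control array 5 and 8936 to 9568 on the other 4. Members with 1 low array follow. *MtnD* had 745 on control array 3 and 942 to 1004 on the other 4. *per* had 118 on control array 4 and 144 to 150.2 on the other 4. *Men* had 6138 on control array 1 and 6354 to 6421 on the other 4. *Ctr1A* had 248 on control array 3 and 316 to 338 on the other 4.

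Outside the named genes, 22 of 1259 probe sets with several symbols or none and a mean Signal of at least 50 (1.75%) also had all 5 arrays of the 2nd exposure above the 10 others.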

How the results depend on the processing

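The number of members was 122 with quantile normalization, 134 and 107 with a mean Signal of at least 20 and 100, and 130 with no symbol left out. It was 68 with equalised array medians and 236 without 2nd exposure arrays 4 and 5, and with each array left out it was 131 to 204, highest without 2nd exposure array 3. The 122 with quantile normalization were in part other probe sets, since 96 of the 123 members stayed separated there. The members' median log2 difference of 2nd minus 1st exposure was 0.47. It was 0.37 to 0.49 under the 25 alternatives in which it was taken, with 0.44 to 0.49 when each array was left out. It was not taken with linear Signal, the mean of the gene's probe sets or only 2 treatments in the fit. The rule had fixed its sign in the members, so this range is a description and no support for the difference.

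Of the 4 members called between 1st exposure and control flies, 0 were called with only the 2 treatments compared and with the nearest arrays averaged, 1 with no Signal filter and with the replicate block, and 2 with linear Signal, log2(Signal + 50), quantile normalization and without 2nd exposure arrays 4 and 5. With each array left out the number was 0 to 3. Between 2nd exposure and control flies 501 probe sets were called, 332 with only the 2 treatments compared, 254 (128 higher, 126 lower) without 2nd exposure arrays 4 and 5 and 347 to 495 with each array left out. The 19 other list genes called became 14 to 23 under the alternatives, 15 to 22 with each array left out. The replicate block gave 420 calls between 2nd exposure and control flies. Per the methods each replicate split its starting flies over the 3 treatments, but whether the array numbers mark those replicates was not given in the sources used here, and arrays with the same number did not deviate together (residual r -0.073 to 0.098, and for 3 of 15 arrays the nearest neighbour shared the number). Of 619 refits of the 23 named calls, 478 stayed past the threshold, 141 did not and none changed sign. The cause of these shifts was not tested. Signals under 20 are near background, which limits the dim members.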

Other observations

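The 7 probe sets that met the rule but belong to families left out of it read *Obp99d*, *Cyp6a8*, *Cyp4e3*, *Ugt37A2*, *Cyp309a1*, *GstE5* and *GstD1*, an odorant-binding protein and enzymes of detoxification. *Obp99d* had 175, 220.3, 209.9, 242 and 210.1 after the 2nd exposure, against 26.2 to 96.0 on the other 10 arrays, a mean ratio of 3.39. *Cyp6a8* had 2526, 2294, 1818, 2262 and 2181 after the 2nd exposure, against 1051 to 1408 on the other 10 arrays, a ratio of 1.83. The other 5 had ratios of 1.16 (*GstD1*) to 1.91 (*Ugt37A2*).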
